A study of Mus musculus with 8 samples.

Results

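The complement system is a cascade of plasma proteins in which each protease activates the next. The classical pathway begins when C1q binds an antibody or a damaged surface, the lectin pathway begins when a collectin or ficolin binds sugars, and the alternative pathway amplifies either of them through factor B and factor D. All 3 meet at C3, and the terminal proteins C5 to C9 then form a pore in the target membrane, while soluble and membrane-bound regulators protect the host's own cells. The liver is the main source of circulating complement: hepatocytes secrete most of the components, whereas C1q, properdin and ficolin A come largely from macrophages such as the resident Kupffer cells, and factor D comes largely from adipocytes.

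Here, 35 complement genes were followed in liver RNA, of 56884 genes in the deposited count tables. They were given by name, matched by gene identifier in a mouse annotation and divided by their usual source into 21 hepatocyte-made genes, 8 macrophage-made genes and 6 of another or mixed source. The study compared the livers of 18 month-old female C57BL/6J mice of 2 groups. All mice had been made obese (diet-induced obese, DIO) by 4 months on a diet in which lipids gave 45% of the energy, begun at the age of 2 months. The DIO group (n = 3; replicates 1, 4 and 5) stayed on that diet, and in the DIO + DHA group (n = 5; replicates 1, 2, 4, 5 and 6) a fish oil concentrate with 683.4 mg/g of the n-3 fatty acid docosahexaenoic acid (DHA) replaced 15% by weight of the dietary lipids. There was 1 library per mouse. No group on a standard diet was part of the comparison, so a value of the DIO group is that of an obese liver and not of a lean one.

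The libraries held 1723800 to 5690347 counts, with DIO replicate 1 the shallowest. Levels are given as CPM, the counts of a gene scaled by TMM to a common library total, and differences as log2 fold changes of DIO + DHA over DIO with the standard error (SE). A gene was called at an adjusted p under 0.05 in the quasi-likelihood test of edgeR, adjusted by Benjamini-Hochberg over all 12412 genes tested, and adjusted p-values of single genes below come from that test. Of all genes tested, 15.2% were called, 7.89% as higher and 7.28% as lower in the DIO + DHA group. With scaling factors from 20 hepatocyte genes alone, the share of higher genes among those called was 37.3% in place of 52.0%. Libraries of the 2 groups did not overlap for 8.88% of genes with lower values and 9.55% with higher values in the DIO + DHA group. Albumin, the main hepatocyte product, was at 38343 to 50006 CPM in the 8 libraries.

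Of the 35 complement genes, 34 were tested, 18 were lower in the DIO + DHA group, 1 was higher and 15 were not called. The median log2 fold change of the 34 genes was -0.31, beside 0.00 over all genes tested. In 15 of the 34 tested genes, all of them among the 18 lower ones, the 5 DIO + DHA libraries all lay below the 3 DIO libraries. Over all genes tested this share was 8.88%. The calls and the lack of overlap rest on the same libraries, so the second is no separate support. Well measured genes are called more readily at this depth: of the 1208 genes with at least 100 CPM, 38.7% were called and 16.8% were lower. The summed level of all members was 12716 to 13241 CPM in the DIO libraries and 10435 to 10621 CPM in the DIO + DHA libraries. The size of the change differed with the source: the median log2 fold change was -0.88 for the macrophage-made genes, of which 7 of 8 were lower, and -0.24 for the hepatocyte-made genes, of which 10 of 21 were lower. The 1 higher gene, Cfd, belongs to neither of these groups.

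Promoter sequences are shown for the genes whose values are given first or contrasted below: the 3 C1q chains, whose genes lie side by side on chromosome 4, the central components C3 and C4b, and the 2 mannose-binding lectins, of which 1 fell and 1 did not. Each is the 250 bases just upstream of the start of the gene's canonical transcript in GENCODE release 39, read from GRCm39 and written 5′ to 3′ on the gene's strand. In the first 5, capitals mark a match to 1 of 5 motifs on either strand: GAGGAAG for PU.1, TTGCNNAA for C/EBP, TTCNNNGAA for STAT, GGGNNTTCC for NF-kappaB and GTTAATNAT for HNF1. In the last 2, capitals mark the ungapped stretch in which both promoters are most alike.
C1qa: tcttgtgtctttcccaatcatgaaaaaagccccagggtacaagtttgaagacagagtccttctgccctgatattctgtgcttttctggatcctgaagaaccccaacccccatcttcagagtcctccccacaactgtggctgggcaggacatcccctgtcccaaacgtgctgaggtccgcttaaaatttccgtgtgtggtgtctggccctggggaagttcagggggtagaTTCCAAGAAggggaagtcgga
C1qb: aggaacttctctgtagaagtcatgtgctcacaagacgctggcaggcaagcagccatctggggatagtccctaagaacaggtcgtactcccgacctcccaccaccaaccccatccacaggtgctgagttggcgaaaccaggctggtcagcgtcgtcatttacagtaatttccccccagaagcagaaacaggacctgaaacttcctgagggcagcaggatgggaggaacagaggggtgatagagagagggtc
C1qc: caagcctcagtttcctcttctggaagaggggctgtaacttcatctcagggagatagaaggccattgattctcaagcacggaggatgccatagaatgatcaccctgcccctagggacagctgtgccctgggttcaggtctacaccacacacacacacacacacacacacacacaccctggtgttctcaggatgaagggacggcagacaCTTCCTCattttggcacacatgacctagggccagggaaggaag
C3: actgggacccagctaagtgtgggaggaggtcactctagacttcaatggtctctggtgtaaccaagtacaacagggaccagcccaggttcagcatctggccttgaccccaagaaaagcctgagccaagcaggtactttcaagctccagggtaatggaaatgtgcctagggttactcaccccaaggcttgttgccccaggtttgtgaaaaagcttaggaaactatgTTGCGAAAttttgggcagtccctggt
C4b: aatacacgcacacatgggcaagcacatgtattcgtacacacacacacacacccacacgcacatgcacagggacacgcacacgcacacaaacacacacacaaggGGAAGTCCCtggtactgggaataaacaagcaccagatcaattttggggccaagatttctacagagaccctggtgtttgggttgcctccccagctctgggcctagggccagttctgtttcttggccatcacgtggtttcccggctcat
Mbl1: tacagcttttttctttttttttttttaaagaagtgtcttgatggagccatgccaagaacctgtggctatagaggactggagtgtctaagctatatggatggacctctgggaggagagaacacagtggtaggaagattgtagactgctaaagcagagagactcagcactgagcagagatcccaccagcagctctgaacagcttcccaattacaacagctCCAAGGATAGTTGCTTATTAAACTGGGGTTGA
Mbl2: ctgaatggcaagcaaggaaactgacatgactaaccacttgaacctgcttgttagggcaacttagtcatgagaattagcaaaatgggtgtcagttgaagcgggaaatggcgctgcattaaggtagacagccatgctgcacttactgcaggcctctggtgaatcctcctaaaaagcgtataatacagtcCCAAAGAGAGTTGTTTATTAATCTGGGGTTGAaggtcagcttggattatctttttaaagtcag

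These windows lie at chr4:136626162-136626411 for C1qa, chr4:136613512-136613761 for C1qb and chr4:136620377-136620626 for C1qc, all on the minus strand. Those of C3 (chr17:57535156-57535405) and C4b (chr17:34962913-34963162) are also on the minus strand, and those of Mbl1 (chr14:40873150-40873399) and Mbl2 (chr19:30210062-30210311) on the plus strand. The C1qc window held a PU.1 match 43 to 37 bases before the start, the C1qa window a STAT match 21 to 13 bases before it and the C1qb window none of the 5 motifs. The C3 window held a C/EBP match 26 to 19 bases before the start and the C4b window an NF-kappaB match 147 to 139 bases before it. In the Mbl pair, 28 of 32 bases were identical, at 32 to 1 bases before the start of Mbl1 and 63 to 32 bases before that of Mbl2, and neither window held any of the 5 motifs. Among the 34 tested members, 6 held a C/EBP match, 4 a STAT match, 4 an NF-kappaB match, 3 a PU.1 match and 3 an HNF1 match. Over the promoters of all 11268 tested protein-coding genes, the shares were 8.43%, 6.59%, 5.6%, 10.6% and 0.692% in the same order. A C/EBP match was found in 3 of the 10 hepatocyte-made genes that fell (C3, C9 and C1s1) and in 3 of the 11 that were not called, so the match did not separate them.

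C1q, the recognition molecule of the classical pathway, is assembled from the products of C1qa, C1qb and C1qc, and all 3 transcripts were lower in the DIO + DHA livers, at 0.491 to 0.551 of their DIO level. C1qb was at 172, 159 and 181 CPM in the DIO libraries and at 85.9, 82.9, 87.6, 81.1 and 81.3 CPM in the DIO + DHA libraries. C1qc was at 105, 108 and 115 CPM in the first group and at 57.4, 64.5, 54.5, 59.4 and 60.1 CPM in the second. C1qa was at 44.9, 66.8 and 66.8 CPM in the first and at 32.5, 29.1, 37.4, 36.2 and 34.9 CPM in the second. No DIO + DHA library reached the lowest DIO library for any chain. On the log2 scale the change was -1.03 for C1qb (SE 0.079, adjusted p = 3.73e-16), -0.90 for C1qc (SE 0.086, adjusted p = 1.41e-12) and -0.86 for C1qa (SE 0.11, adjusted p = 8.02e-09). The summed level of the chains averaged 340 ± 20.7 CPM in the 3 DIO libraries and 177 ± 1.44 CPM in the 5 DIO + DHA libraries (mean ± SD). The share of each chain in the sum overlapped between the groups, from 45.9% to 53.4% for C1qb, 30.4% to 36.6% for C1qc and 13.9% to 20.8% for C1qa over all libraries, so the chains fell in close proportion to each other.

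Properdin and ficolin A, also products of macrophages, fell as well. Cfp, which encodes properdin, the stabiliser of the alternative pathway convertase, was at 72.9, 67.1 and 81.1 CPM in the DIO libraries and at 47.9, 39.5, 47.7, 50.5 and 37.9 CPM in the DIO + DHA libraries. Fcna, which encodes ficolin A, a sugar-binding starter of the lectin pathway, was at 95.4, 87.1 and 102 CPM and at 55.8, 69.2, 66.2, 56.1 and 59.1 CPM in the same order. Neither gene overlapped between the groups, and their log2 fold changes were -0.72 for Cfp (SE 0.10, adjusted p = 8.84e-08) and -0.64 for Fcna (SE 0.091, adjusted p = 1.68e-07).

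The receptors for the anaphylatoxins C3a and C5a, which draw in and activate myeloid cells, were far less abundant and were measured with little precision. C3ar1 was at 3.93, 4.32 and 5.84 CPM in the DIO libraries and at 1.58, 4.68, 2.14, 1.40 and 1.31 CPM in the DIO + DHA libraries. C5ar1 was at 4.49, 2.34 and 4.25 CPM and at 2.38, 0.669, 0.356, 2.10 and 0.872 CPM in the same order. In both genes 1 DIO + DHA library lay within the DIO range, replicate 2 for C3ar1 and replicate 1 for C5ar1. C3ar1 had a log2 fold change of -1.24 (SE 0.34, adjusted p = 0.00656) and C5ar1 of -1.30 (SE 0.41, adjusted p = 0.0192), on 6 to 33 and 1 to 24 counts per library. Without DIO replicate 5 neither was called (adjusted p = 0.116 and 0.21), nor was C5ar1 without DIO + DHA replicate 4 (adjusted p = 0.0527). Itgam, the alpha chain of complement receptor 3, was at 0 to 8 counts per library and was not called (log2 fold change -0.03, 95% interval -1.17 to 1.11). A gene that overlaps it on the genome shares 68.7% of its exon bases, and reads there were assigned to neither.

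**Figure D1:**
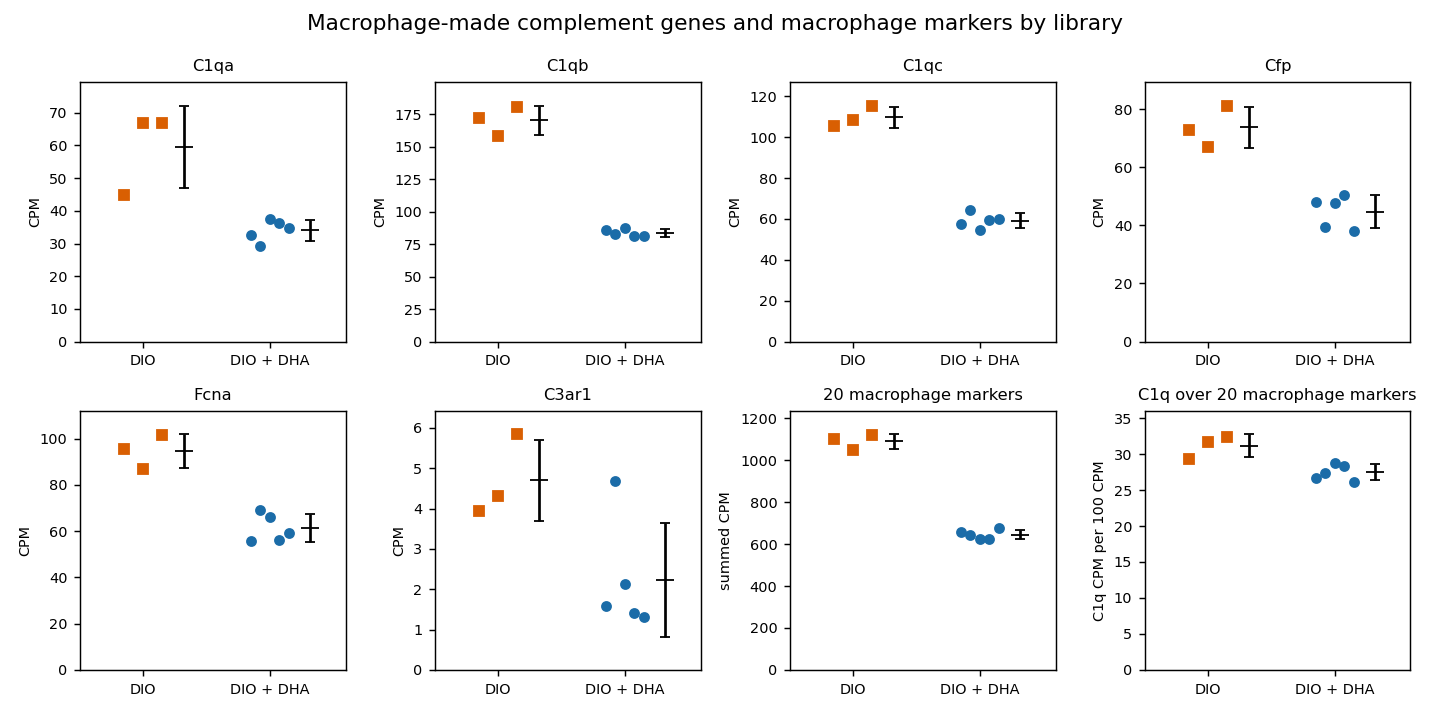
CPM of 6 macrophage-made complement genes, the summed CPM of 20 macrophage markers and the C1q sum per 100 CPM of those markers, in each library; bars are the mean ± SD of 3 DIO (squares) and 5 DIO + DHA (circles) libraries. The C1q chains, Cfp and Fcna do not overlap between the groups, and neither does the marker sum.

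The markers of macrophages fell together with these genes. Of 20 macrophage markers 19 were tested, of which 14 were lower and 1 was higher, and their summed level was 1052 to 1119 CPM in the DIO libraries and 624 to 675 CPM in the DIO + DHA libraries, 59.2% of the DIO mean. For the macrophage-made complement genes the corresponding share was 55.6%. Among the Kupffer cell genes, Cd5l had a log2 fold change of -1.12 (adjusted p = 2.34e-17), Clec4f of -0.72 (adjusted p = 2.31e-08), Csf1r of -0.87 (adjusted p = 3.06e-08) and Adgre1 of -0.72 (adjusted p = 0.036). Adgre1 overlapped between the groups, at 6.48 to 15.7 CPM (DIO, highest in replicate 1) and 4.36 to 7.48 CPM (DIO + DHA). Timd4 was at 1.68 to 6.32 CPM and was not called (log2 fold change 0.19, adjusted p = 0.802), and the scavenger receptor gene Marco was higher (log2 fold change 0.66, adjusted p = 0.000109). Of 12 monocyte and neutrophil markers 8 were tested, with log2 fold changes from -0.77 to 0.49, and the summed level of the list was 37.2 to 39.6 CPM in the DIO libraries and 27.4 to 38.8 CPM in the DIO + DHA libraries. A lower sum was not particular to macrophages. The sum of 12 endothelial markers was 296 to 322 CPM (DIO) and 230 to 267 CPM (DIO + DHA). That of 12 stellate cell and fibroblast markers was 442 to 469 and 392 to 421 CPM. Most single genes of these 2 lists were not called (9 of 12 and 10 of 12). In RNA of whole tissue, fewer cells of a type and less RNA per cell cannot be told apart.

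The level of the macrophage-made genes was also set against the markers within each library, which removes the scaling. C1q was at 29.3 to 32.4 CPM per 100 CPM of the 20 summed markers in the DIO libraries and at 26.1 to 28.8 in the DIO + DHA libraries, which did not overlap. The log2 difference was -0.18, with an exact two-sided permutation p of 0.0179, the smallest that 3 against 5 libraries allow, and an adjusted p of 0.0491 over the 11 ratios compared. Against a subset of 7 of the 20 macrophage markers (Csf1r, Cd68, Tyrobp, Fcer1g, Mpeg1, Laptm5 and Aif1), C1q overlapped between the groups, at 101 to 111 and 96.9 to 115 CPM per 100 CPM (exact permutation p = 0.5). Fcna was at 8.28 to 9.08 and 8.46 to 10.7 CPM per 100 CPM of the 20 markers (exact permutation p = 0.268), and Cfp at 6.38 to 7.25 and 5.62 to 8.09 (exact permutation p = 0.821). Thus, Fcna and Cfp showed no difference beyond the spread of the libraries once they were set against macrophage markers, and C1q differed only by a small amount that depended on the markers chosen.

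Among the hepatocyte-made genes of the classical pathway, the substrates C4 and C2 and the protease C1s fell. C4b, which encodes C4, was at 1092, 1177 and 1321 CPM in the DIO libraries and at 883, 846, 914, 894 and 869 CPM in the DIO + DHA libraries. C2, which together with C4 forms the C3 convertase, was at 52.7, 44.6 and 52.4 CPM and at 35.8, 41.5, 38.5, 30.8 and 37.3 CPM. C1s1, the protease that cleaves both, was at 97.1, 103 and 83.8 CPM and at 66.3, 76.9, 69.8, 71.0 and 66.9 CPM. In none of them did the groups overlap. Their log2 fold changes were alike, at -0.44 for C4b (SE 0.064, adjusted p = 1.88e-07), -0.44 for C2 (SE 0.11, adjusted p = 0.00236) and -0.43 for C1s1 (SE 0.089, adjusted p = 0.000207).

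C1ra, the protease that activates C1s, and the related C1rl were not called. C1ra was at 74.9 to 83.6 CPM in the DIO group and 56.3 to 76.6 CPM in the DIO + DHA group (log2 fold change -0.17, 95% interval -0.36 to 0.02), and C1rl at 166 to 184 and 143 to 172 CPM (log2 fold change -0.15, adjusted p = 0.196). The ratio of C1s1 to C1ra within a library, 1.09 to 1.38 against 0.920 to 1.26, did not differ beyond the spread of the libraries (exact permutation p = 0.107). This rested on 1 library: without DIO + DHA replicate 5 the log2 difference of that ratio was -0.32 (exact permutation p = 0.0286), so whether C1s1 fell more than C1ra was not settled. C4b has a close paralog, C4a, and reads that align to both genes were not counted for either. C4a was at 26.4 to 29.5 CPM in the DIO libraries and 19.6 to 25.99 CPM in the DIO + DHA libraries (log2 fold change -0.33, adjusted p = 0.0704). For C2, 46.9% of the exon bases lie in exons of other genes, though only 5.80% of the last 500 bases of its canonical transcript do, and the libraries are enriched for that end.

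C3, where the 3 pathways meet, was at 4460, 4246 and 4181 CPM in the DIO libraries and at 3451, 3442, 3138, 3547 and 3172 CPM in the DIO + DHA libraries. The highest DIO + DHA library lay below the lowest DIO library. The log2 fold change was -0.36 (SE 0.059, adjusted p = 3.95e-06), or 0.78 of the DIO level. Cfb, which encodes factor B, the catalytic chain of the alternative pathway convertase, had 2 to 16 counts per library. It was at 8.98, 2.52 and 1.95 CPM and at 2.77, 1.00, 0.712, 0.701 and 0.654 CPM, so that DIO replicate 1 and DIO + DHA replicate 1 stood above the rest of their groups. The log2 fold change of -1.42 (SE 0.50) was not called (adjusted p = 0.0543). With a library left out it ran from -2.15, without DIO + DHA replicate 1 (adjusted p = 0.00284), to -0.81, without DIO replicate 1 (adjusted p = 0.338), and it was also called without DIO replicate 5 (adjusted p = 0.0129). A readthrough gene across C2 and Cfb, Gm20547, shares 79.5% of the exon bases of Cfb, and it had 0 counts in every library. Reads in those shared bases were assigned to neither gene, so the counts of Cfb may be too low. However, 0% of the last 500 bases of its canonical transcript lie in exons of other genes, and the libraries are enriched for that end. How far the loss of shared reads lowered the counts of Cfb was not tested.

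Cfd was the exception among all members. It encodes factor D, the protease that cleaves factor B, and is also known as adipsin for its high level in adipocytes. It was at 1.12, 2.16 and 0.885 CPM in the DIO libraries and at 36.2, 32.1, 40.2, 31.8 and 26.1 CPM in the DIO + DHA libraries. Each DIO + DHA library was more than 10 times above each DIO library. The log2 fold change was 4.47 (SE 0.24, adjusted p = 1.53e-22), or 22.2-fold, on 2 to 12 counts per library in the DIO group and 96 to 183 in the DIO + DHA group.

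Some genes of tissues other than liver were higher in the same 5 libraries. The 12 adipocyte markers summed to 1262 to 1345 CPM in the DIO libraries and 1243 to 1364 CPM in the DIO + DHA libraries, most of it from Car3, so that the list as a whole was not higher. Of 10 that were tested, 5 were higher and 2 lower, the latter Thrsp (log2 fold change -0.69) and Plin4 (-0.90), both of lipid metabolism; of the higher ones Adipoq, Retn and Cidea passed the count minimum only through the DIO + DHA group. Fabp4, a fatty acid carrier of adipocytes and macrophages, was at 14.6 to 19.3 CPM in the DIO group and 37.4 to 50.9 CPM in the DIO + DHA group. The lipid droplet gene Cidec was at 7.44 to 10.98 and 45.2 to 52.3 CPM. Adiponectin (Adipoq), a defining product of adipocytes, was lower than both, at 0 to 1.68 CPM and 1.19 to 7.83 CPM, which overlap (adjusted p = 0.023). The 20 skeletal muscle markers, which include Acta1 at 11.5 to 12.1 and 522 to 578 CPM, summed to 43.7 to 50.6 CPM in the DIO libraries and 1456 to 1585 CPM in the DIO + DHA libraries. The 12 squamous epithelium markers summed to 0.561 to 1.62 and 77.3 to 88.7 CPM. Some of the muscle markers and all but Sfn of the squamous ones that were tested passed the count minimum only through the DIO + DHA group, so that counts of calls over these lists are not given. The part of these genes' source in the level of Cfd was not tested.

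**Figure D2:**
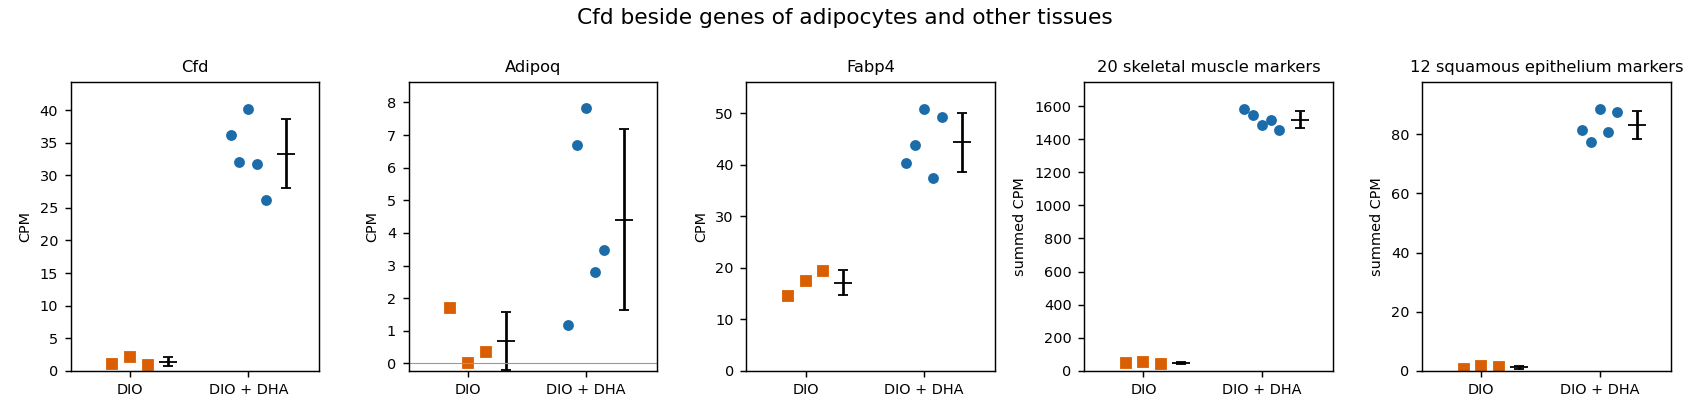
CPM of Cfd, Adipoq and Fabp4 and summed CPM of 20 skeletal muscle and 12 squamous epithelium markers in each library; bars are the mean ± SD of 3 DIO (squares) and 5 DIO + DHA (circles) libraries. Every DIO + DHA library is above every DIO library in each panel except that of Adipoq.

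In the lectin pathway, 4 of 6 genes fell, and members with a close partner parted from it. Mbl2, which encodes mannose-binding lectin C, was at 702, 771 and 757 CPM in the DIO libraries and at 547, 580, 559, 573 and 601 CPM in the DIO + DHA libraries. Mbl1, which encodes mannose-binding lectin A, was at 274, 281 and 300.5 CPM and at 320.5, 276, 294, 295 and 302 CPM. Mbl2 fell without overlap, whereas Mbl1 lay within the range of the DIO libraries in 3 of 5 DIO + DHA libraries and above it in the other 2. The log2 fold change was -0.38 for Mbl2 (SE 0.064, adjusted p = 5.97e-06) and 0.06 for Mbl1 (95% interval -0.08 to 0.20, adjusted p = 0.679). The ratio of Mbl2 to Mbl1 was 2.56, 2.74 and 2.52 in the DIO libraries and 1.71, 2.10, 1.90, 1.94 and 1.99 in the DIO + DHA libraries, without overlap (exact permutation p = 0.0179, adjusted p = 0.0491 over the 11 ratios). This ratio, like those of Masp1 to Masp2 and C8a to C8g below, was chosen with earlier results of these data known. Its p-value is therefore no independent test.

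The lectins act through the serine proteases MASP-1 and MASP-2, and the transcripts of these also parted. Masp1 was at 74.6, 67.5 and 77.6 CPM in the DIO libraries and at 49.7, 46.2, 42.0, 51.6 and 56.7 CPM in the DIO + DHA libraries. Masp2 was at 120, 144 and 140 CPM and at 135, 117, 139, 142 and 123 CPM. Masp1 fell without overlap (log2 fold change -0.55, SE 0.097, adjusted p = 1.31e-05), and Masp2 overlapped throughout (log2 fold change -0.05, 95% interval -0.22 to 0.11). The ratio of Masp1 to Masp2 was 0.467 to 0.624 in the DIO group and 0.303 to 0.460 in the DIO + DHA group (exact permutation p = 0.0179, adjusted p = 0.0491). It did not pass 0.05 without DIO + DHA replicate 1, 2, 4 or 5 (exact permutation p = 0.0571 for each). Of the exon bases of Masp2, 54.9% lie in exons of Tardbp on the other strand, and reads there were not counted. Colec11, a collectin of hepatocytes and other cells, was at 56.1, 72.5 and 77.4 CPM and at 55.0, 59.9, 61.2, 53.3 and 61.5 CPM. Its groups overlapped through DIO replicate 1, and its log2 fold change of -0.28 (SE 0.096, adjusted p = 0.0341) was not called without DIO replicate 4 or 5 (adjusted p = 0.173 and 0.346) nor without DIO + DHA replicate 1 or 5 (adjusted p = 0.0935 and 0.0758).

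**Figure D3:**
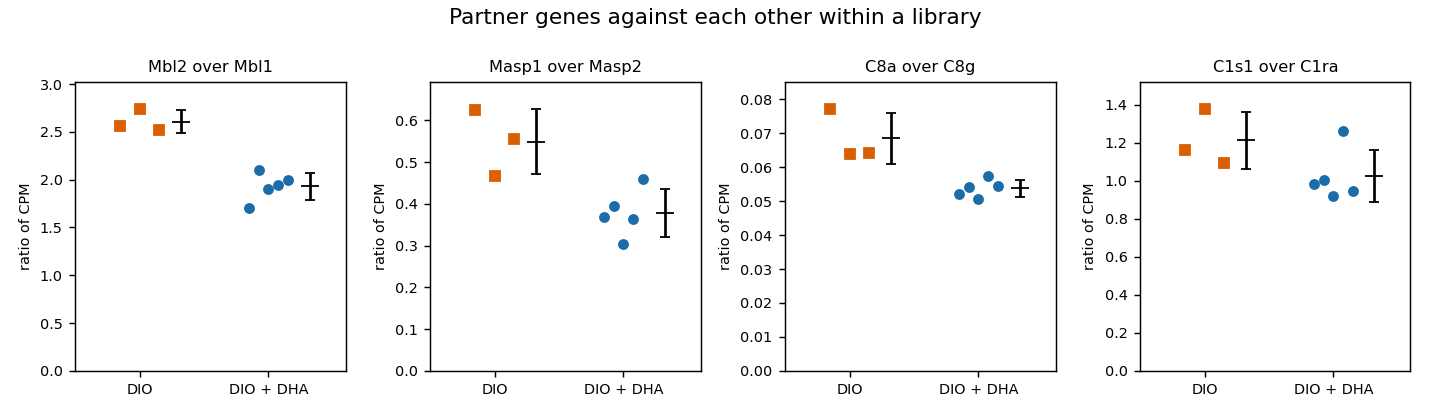
Ratio of the CPM of 4 pairs of complement genes within each library; bars are the mean ± SD of 3 DIO (squares) and 5 DIO + DHA (circles) libraries. Mbl2 over Mbl1, Masp1 over Masp2 and C8a over C8g are lower in every DIO + DHA library than in any DIO library, and C1s1 over C1ra overlaps.

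In the terminal pathway, 3 of 6 tested genes fell: those of C5, of the alpha chain of C8 and of C9, the protein that lines the pore. Hc, the mouse gene of C5, was at 426, 433 and 414 CPM in the DIO libraries and at 355, 349, 346, 385 and 362 CPM in the DIO + DHA libraries. C9 was at 102, 116 and 124 CPM and at 86.1, 82.9, 75.1, 81.3 and 98.7 CPM. C8a was at 66.8, 54.2 and 60.7 CPM and at 45.7, 45.2, 44.5, 44.4 and 48.6 CPM. None of them overlapped between the groups. Their log2 fold changes were -0.24 for Hc (SE 0.067, adjusted p = 0.00777), -0.44 for C9 (SE 0.087, adjusted p = 0.000126) and -0.38 for C8a (SE 0.098, adjusted p = 0.00385). Hc was not called without DIO replicate 4 (adjusted p = 0.0704).

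C8 is built from 3 chains, and the transcripts of the beta and gamma chains were not called. C8b, the beta chain, was at 51.1 to 59.0 CPM in the DIO group and 46.6 to 62.7 CPM in the DIO + DHA group (log2 fold change 0.07, 95% interval -0.13 to 0.27). C8g, the gamma chain, was at 847 to 947 and 774 to 893 CPM (log2 fold change -0.06, 95% interval -0.19 to 0.07). The ratio of C8a to C8g did not overlap between the groups, at 0.0640 to 0.0773 and 0.0505 to 0.0574 (exact permutation p = 0.0179, adjusted p = 0.0491). The ratio of C8a to C8b overlapped, at 0.918 to 1.31 and 0.7102 to 1.04 (exact permutation p = 0.0357, adjusted p = 0.0786). C6 was at 5.14 to 7.69 CPM in all libraries and was not called (log2 fold change -0.08, 95% interval -0.55 to 0.39). C7 had 0 counts in all 8 libraries, which allows up to 0.531 to 1.68 CPM per library (3 counts; counting error only).

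Of the 7 regulators among the members, 1 was called, as lower. This is near the share of lower genes among all genes tested (7.28%) and among those with at least 100 CPM (16.8%). It holds for the listed regulators only: Serping1, a regulator outside the list, was lower (below). Clu, which encodes clusterin, a chaperone that keeps the terminal complex out of membranes, was at 2150, 2201 and 2462 CPM in the DIO libraries and at 1739, 1805, 1787, 1861 and 1822 CPM in the DIO + DHA libraries. The groups did not overlap, and the log2 fold change was -0.33 (SE 0.060, adjusted p = 2.39e-05). Cfi, the protease that degrades C3b and C4b, had a log2 fold change of -0.12 (95% interval -0.27 to 0.03), and it was called without DIO + DHA replicate 4 (adjusted p = 0.0418). C4bp, its cofactor for C4b, had -0.04 (95% interval -0.20 to 0.11), and Cfhr2 had -0.06 (95% interval -0.21 to 0.09). The membrane-bound regulators Cd55, Cd59a and Cr1l had log2 fold changes of 0.04, 0.03 and -0.03, each with an adjusted p of 0.887 or more.

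**Figure D4:**
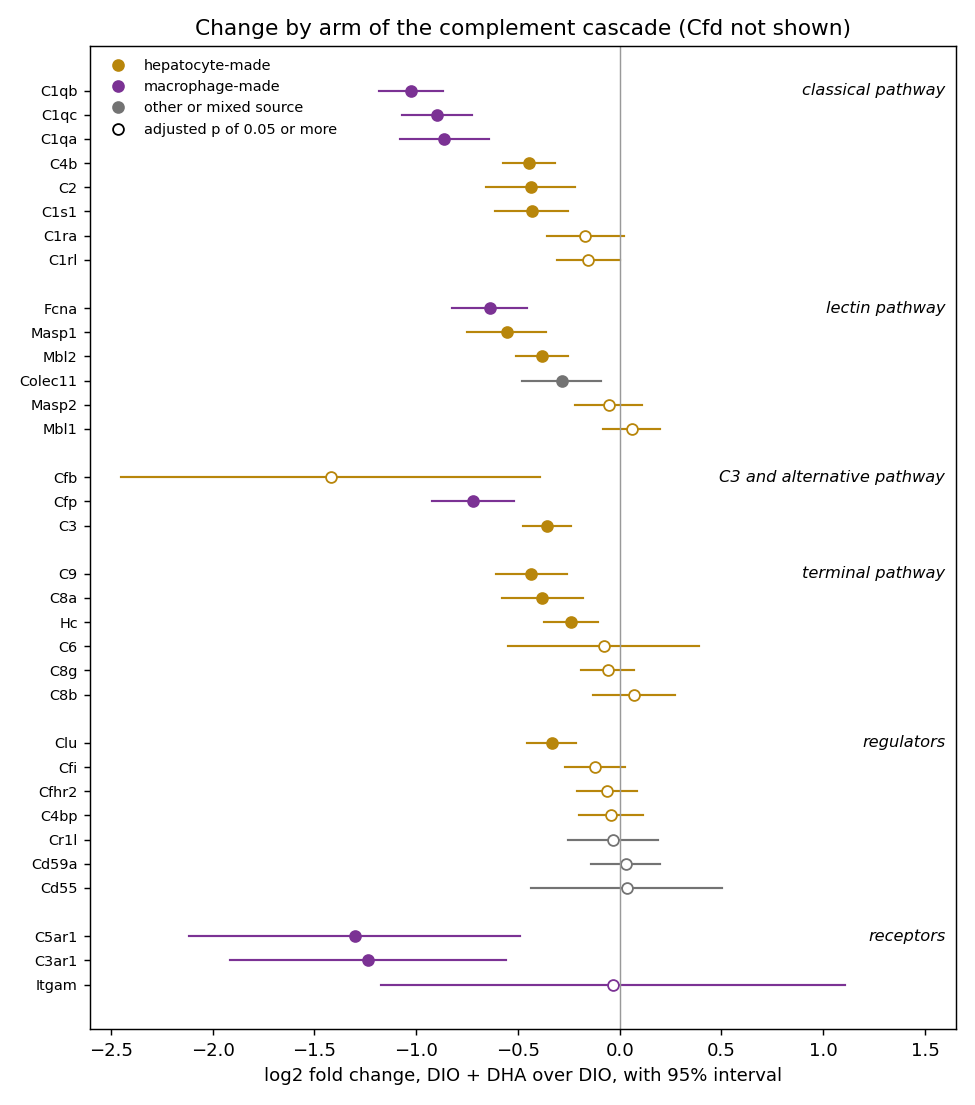
Log2 fold change of DIO + DHA over DIO with the 95% interval from edgeR for 33 complement genes by arm of the cascade; filled points have an adjusted p under 0.05. The classical pathway has 6 of 8 genes lower, the lectin pathway 4 of 6, the terminal pathway 3 of 6 and the regulators 1 of 7; Cfd, at 4.47, is left out for scale.

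Over the arms, 6 of 8 genes of the classical pathway were lower, 4 of 6 of the lectin pathway, 2 of 4 of C3 and the alternative pathway, 3 of 6 of the terminal pathway, 1 of 7 regulators and 2 of 3 receptors. The share of lower genes was 7.28% over all genes tested and 16.8% over those with at least 100 CPM. The medians of the log2 fold change were -0.44, -0.33, -0.54, -0.16, -0.04 and -1.24 in the same order. The -0.54 is that of 4 genes that ran from -1.42 (Cfb, not called) to 4.47 (Cfd, higher). The hepatocyte-made genes that fell did so by -0.55 to -0.24 on the log2 scale. The groups did not overlap in any of these 10, beside 8.88% of all genes tested with lower values. These genes were picked by their call in the same libraries, so the lack of overlap adds no support. Those not called, apart from Cfb, had log2 fold changes from -0.17 to 0.07. The 20 hepatocyte markers were 5 lower, 5 higher and 10 not called (median log2 fold change 0.00), and they summed to 165810 to 175904 CPM in the DIO libraries and 175296 to 189201 CPM in the DIO + DHA libraries. The spread between mice was small for these genes: in the 27 members at 20 CPM or more, the median coefficient of variation between libraries was 7.23% (DIO) and 6.58% (DIO + DHA), where counting error by itself would account for 5.32% and 5.65%.

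Among 29 further genes of the complement pathway, 20 were tested, of which 9 were lower and 1 was higher. Vsig4, a complement receptor of Kupffer cells, was at 33.6 to 46.0 CPM in the DIO libraries and 19.1 to 23.1 CPM in the DIO + DHA libraries (log2 fold change -0.76, adjusted p = 3.21e-06). Serping1, the C1 inhibitor, was at 929 to 992 and 793 to 848 CPM (log2 fold change -0.21, adjusted p = 0.0108), and was not called without DIO replicate 4 (adjusted p = 0.128). Both were lower in every DIO + DHA library than in any DIO library. Also lower were Cfhr4 (-0.36), the carboxypeptidase genes Cpn2 (-0.28) and Cpb2 (-0.22), vitronectin (Vtn, -0.24) and the integrin genes Itgax (-1.94) and Itgb2 (-0.94), and the higher gene was C1qbp (0.37), which encodes a mostly mitochondrial protein that binds C1q. Some of these calls rested on single DIO libraries. Itgb2 was not called without DIO replicate 5 (log2 fold change -0.58, adjusted p = 0.328), Itgax and Vtn without DIO replicate 4 (adjusted p = 0.0803 and 0.156) or 5 (adjusted p = 0.082 and 0.102), and Cpb2 without DIO replicate 1 or 4 (adjusted p = 0.0743 and 0.137) or DIO + DHA replicate 5 (adjusted p = 0.0503). Itgb2 and Itgax also lost their call with DESeq2 (adjusted p = 0.0735 and 0.0855) and, like C1qbp, with the replicate number as a block (adjusted p = 0.0923, 0.114 and 0.0647). Itgax had 1 to 11 counts per library, and C-reactive protein (Crp) was not called (log2 fold change 0.09).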

How the data were processed

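Liver poly(A) RNA of 8 mice was sequenced by a SCRB-seq type protocol that enriches the 3′ ends of transcripts. After trimming and alignment to GRCm39 with STAR 2.7.9a, the authors deposited raw read counts per gene, made with featureCounts 1.6.0 on the exons of GENCODE mouse release 33; per the file headers no strand, multi-mapping or overlap option was set. The sources used here do not say whether molecular identifiers were collapsed. Counting errors and floors may therefore be too narrow. Names came from GENCODE release 39 (56323 of 56884 identifiers), and no protein sequence was used here.

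Groups and replicate numbers were taken from the labels. Genes with fewer than 5 counts in over 50% of libraries, in each of both groups, were not tested. Counts were scaled by TMM and tested with edgeR 4.0.16 (R 4.3.3; quasi-likelihood F test, robust) at an adjusted p under 0.05. The fit was tested on simulated data, where 2 pass criteria set first, on recovery and on the error of the fold change, were not met and were replaced by criteria on interval coverage and false calls; small changes of genes with low counts were mostly missed there, so a low-count gene that was not called may still differ. Each library is 1 mouse per the labels. Ratios within a library were tested by exact permutation of the group labels (two-sided), adjusted over 11 ratios. Alternatives covered scaling, filter, threshold, DESeq2 1.42.0, limma-voom (limma 3.58.1; adjusted p, or log-odds B above 0), a replicate block and leaving out each library.

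The members, the gene lists, the motifs and the ratios were chosen with earlier results of these data known. Counts over a list are therefore descriptions, and the permutation p-values of the ratios are no independent tests. Values in every library are given for each member called and for C3, the C1q chains, Hc, Mbl1 and Mbl2; of the other complement genes, values are given for those called, which include Serping1 and Vsig4; some items of that list are not reported here. Masp2, Cfb and further members outside that rule are named because the members are few. The replicate numbers 1, 4 and 5 occur in both groups but did not pair the libraries: the correlations of the deviations from the group means were -0.026, -0.073 and -0.054.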

Additional observations from a re-analysis of the deposited data

Results flagged for a closer look

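In the DIO + DHA group, 5 of the 34 tested members had 1 library apart from the other 4 by Dixon's criterion for 5 samples (0.71), where chance gives about 1 in 20 groups. C8b was at 46.6 CPM in replicate 6 and at 60.8 to 62.7 CPM in the others. C4bp was at 518 CPM in the same replicate and at 376 to 406 CPM in the others. Cfi was at 664 CPM in replicate 4 and at 496 to 529 CPM in the others. The low genes Cfb, at 2.77 CPM in replicate 1 against 0.654 to 1.00 CPM, and C3ar1, at 4.68 CPM in replicate 2 against 1.31 to 2.14 CPM, rest on few counts. The DIO group, with 3 libraries, was too small for this criterion.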

How the results depend on the processing

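Over 20 alternatives, 13 to 20 members were lower, and 16 to 18 when a library was left out. Cfd was the 1 higher member in all but 1 alternative: 0 were higher with at least 10 counts in every library, since Cfd was then not tested. The medians ranged from -0.32 to -0.20 for hepatocyte-made members (-0.27 to -0.22 with a library left out) and from -0.95 to -0.81 for macrophage-made members (-0.94 to -0.81). With the replicate block, 17 members were lower and 1 higher, the medians were -0.25 and -0.85, and 1539 genes in place of 1883 were called. Of the further complement genes, 9 of which were lower and 1 higher, 2 were lower and 0 higher with B above 0 (859 genes called in all), 4 were lower at an adjusted p under 0.01, 5 to 11 were lower with a library left out (5 without DIO replicate 4), and 0 were higher with the block.

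Members that were not called changed sign. With hepatocyte-marker scaling C8b was at -0.0016, Mbl1 at -0.024, Cd55 at -0.032 and Cd59a at -0.048, while C1rl and Cfi were called (adjusted p = 0.0298 and 0.045). Itgam was at 0.066 with DESeq2, 0.12 with limma-voom, 0.15 with the block and -0.26 to 0.54 with a library left out; Cd55 was at -0.0092 with limma-voom, -0.20 with the block and -0.092 to 0.14; Masp2 was at 0.040 with the block and -0.11 to 0.0071; Cd59a was at -0.0057 with the block and -0.022 to 0.12; C8g was at -0.083 to 0.0039 and Cr1l at -0.11 to 0.089. The log2 difference of Cfp over macrophage markers, 0.03, ran from -0.028 to 0.10 when a library was left out. Colec11, C5ar1 and C3ar1 lost their call with DESeq2 (adjusted p = 0.126, 0.0696 and 0.0584), Colec11 and C5ar1 also with the block (adjusted p = 0.069 and 0.0745), and Colec11, C5ar1, Hc, C2 and C8a with B above 0. Cfb was called with DESeq2, with no filter and with the block (adjusted p = 0.0343, 0.0138 and 0.0123). The cause was not tested. Depth limits C6, Cd55, C3ar1 and C5ar1. Cfb and Itgam also had few counts, and there reads in exon bases shared with another gene were assigned to neither gene. Of the last 500 bases of the canonical transcript, 51.2% were shared for Itgam and 0% for Cfb. The part of depth and of shared bases in the low counts of these genes was not tested.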
